A study of Mus musculus with 32 samples.

Results

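Regulatory T cells recovered from allogeneic recipients at day 6 were compared with regulatory T cells of the donor pool at day 0. The members were 5 libraries of the 31 in the series: 3 labelled as Treg at day 6 (replicates JL019-1, JL019-2 and JL027) and 2 labelled as Treg at day 0 (JL019 and JL027). The rule that picks them uses their labels and no measured value. The donor cells came from C57Bl6 mice. The day 0 group is labelled pretransplant. The day 6 group came from Balb/c recipients with acute graft-versus-host disease across a major histocompatibility mismatch that were given Treg on day 0, from spleen and lymph nodes. No day 6 Treg library came from a syngeneic recipient or from a recipient without graft-versus-host disease, so transplantation, the foreign host and time are shared by all 3 day 6 libraries and cannot be told apart. Sample names give day 6, whereas the series' own description gives 8 days. For comparison, CD4 and CD8 conventional donor T cells labelled as from Treg-treated recipients (4 libraries each at day 6) and of the donor pool (2 each at day 0) were used. Their day 6 labels match Treg libraries by recipient only for JL019-1 and JL019-2. Each library was sequenced both as full-length cDNA and as T-cell receptor (TCR) alpha and beta chains amplified from that cDNA. RNA values are counts that the authors normalised between libraries, so the read depth behind them is unknown.

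Regulatory T cells (Treg) are CD4 T cells under the transcription factor Foxp3 that restrain other T cells through the inhibitory receptor Ctla4, uptake of interleukin 2, cytokines such as interleukin 10 and, once activated, granzymes. On activation they leave the lymph node programme of Tcf7 and Ccr7 and take up receptors for inflamed tissue. In graft-versus-host disease, donor T cells attack host tissue, and donor Treg given early are known to limit this.

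The labels were checked against marker genes first. Cd4 was 7239 and 9029 at day 0 and 14512 to 16083 at day 6 (JL019 before JL027 throughout, and JL019-1, JL019-2, JL027 at day 6), while Cd8a stayed between 28.5 and 59.5 in all 5 libraries, against a mean of 27544 ± 6181 (SD, n = 2) in day 0 CD8 libraries. The 6 pan-T genes and the 20 genes of proximal TCR signalling gave 0 calls each by limma, with 1 and 4 genes at an unadjusted p under 0.05. When only the Treg libraries were fitted, 1 pan-T gene and 10 signalling genes (8 higher, 2 lower) were called, among 3994 of all genes. Il2ra, the high-affinity interleukin 2 receptor chain, was 11229 and 13064 at day 0 and 24209, 21787 and 19300.4 at day 6, with all 5 Treg libraries above the day 0 CD4 mean of 1952 ± 41.1 (SD, n = 2). Ikzf2, the Treg factor Helios, was 19287 and 14182 at day 0 and 14862, 14335 and 11615 at day 6, against 1695 ± 106 (SD, n = 2) in day 0 CD4 libraries. Foxp3 went against this order. It was 198 and 442 in the day 0 Treg libraries and 285, 265 and 293 at day 6, below the day 0 CD4 mean of 1061 ± 118 (SD, n = 2). Foxp3 RNA in this table was therefore lower in the Treg libraries than in day 0 CD4 libraries, against the label, whereas Il2ra and Ikzf2 were higher. Between day 6 and day 0 Treg none of the 3 passed the test, with log2 changes of -0.08 ± 0.78 for Foxp3, 0.84 ± 0.42 for Il2ra and -0.29 ± 0.43 for Ikzf2 (± SE) and limma adjusted p of 0.969, 0.22 and 0.738.

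Of 16741 genes, 2231 (13.3%) passed limma at an adjusted p under 0.05 between day 6 and day 0 Treg, 1412 (8.43%) higher and 819 (4.89%) lower at day 6. The libraries of day 0 and day 6 lay fully apart for 50.9% of all genes, so lying apart is not in itself a result. Of the called genes, 2230 had the same direction within each label prefix, which the lack of overlap in 2228 of them fixes in advance. Across genes, log2 values correlated with Pearson's r of 0.960 between the day 0 libraries, 0.971 to 0.974 among the day 6 libraries and 0.914 to 0.935 across the groups, as a description over genes that are not independent. A p-value here sets a change against a spread between libraries that was estimated over all 31 libraries in 10 groups. Nothing in the labels says that the Treg libraries came from separate animals. Leaving out the day 0 library JL019 or JL027 left 1088 or 1271 called genes. When only the Treg groups were fitted, 3994 of all genes were called, 2553 higher and 1441 lower, the background for every list count under that fit.

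**Figure D1:**
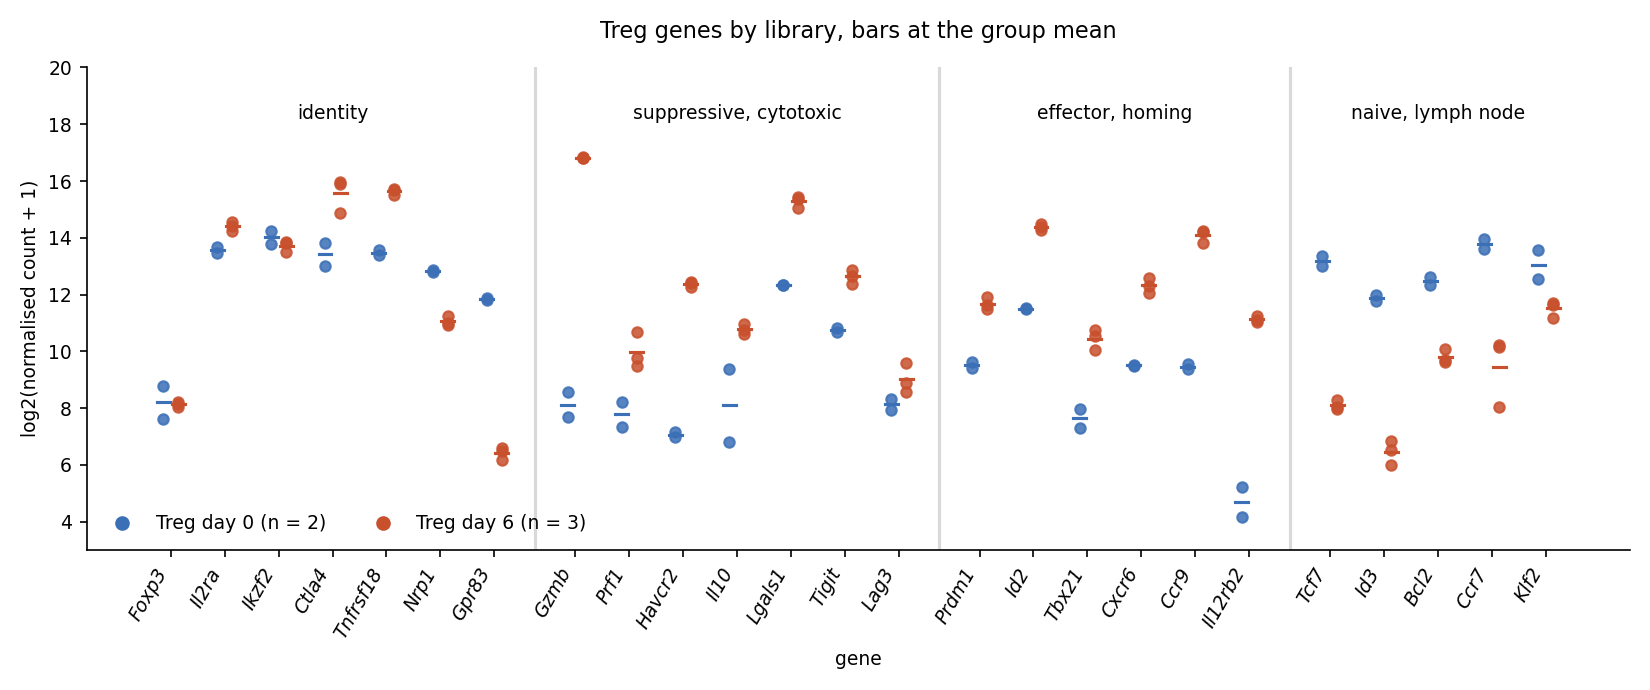
Normalised counts of 25 Treg genes on a log2(value + 1) axis, one point per library (blue, day 0, n = 2; red, day 6, n = 3), with bars at the group means of the log2 values. Gzmb and Il12rb2 sit far above their day 0 libraries at day 6, Gpr83, Tcf7 and Id3 far below, and Foxp3 overlaps.

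Among Treg identity genes, day 6 cells carried more of the co-stimulatory receptors and Ctla4 and less of Gpr83, Nrp1 and Cd83. Of 20 such genes, 6 were called higher and 4 lower, with a median log2 change of 0.32 against -0.07 over all genes. That median turned to -0.03 (5 higher, 5 lower) after quantile normalisation, and was 0.13 without day 0 JL019 and 0.52 without day 0 JL027. Tnfrsf9, the receptor 4-1BB, was 6163 and 6895 at day 0 and 61897, 59219 and 52380.2 at day 6. Every day 6 library lay above both day 0 libraries, and Tnfrsf9 rose by 3.15 ± 0.33 on the log2 scale (± SE, adjusted p 1.09e-07). Tnfrsf4, the receptor OX40, rose 5.75-fold in group means and Tnfrsf18, the receptor GITR, 4.51-fold (adjusted p 9.61e-05 and 5.99e-05). Ctla4, which takes B7 ligands away from antigen-presenting cells, was 8262 and 14415 at day 0 and 64681, 61226 and 30287 at day 6. The JL027 library was the lowest of the day 6 libraries at Ctla4 yet still above both day 0 libraries (log2 change 2.18 ± 0.52, adjusted p 0.00487), and the call was lost without the day 0 library JL019. Gpr83, a G-protein-coupled receptor enriched in resting Treg, was 3632 and 3742 at day 0 and 71.1, 89.6 and 96.0 at day 6, a 43.1-fold fall (adjusted p 6.7e-07). Nrp1, a semaphorin co-receptor found on thymic Treg, fell from 7417 and 7167 to 2409, 1973 and 2065, with a log2 change of -1.77 ± 0.24 (adjusted p 6.1e-06). Cd83, an activation-linked surface protein, fell 12.9-fold (adjusted p 1.25e-07).

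Many genes of suppression and cytotoxicity rose, and 7 of 19 in each of these lists did not pass the test. Of 19 suppressive effector genes 12 were called higher and 0 lower (median 1.88 on the log2 scale), with 2 lower when only the Treg groups were fitted and 1 lower after quantile normalisation. Of 19 granzyme and cytotoxicity genes again 12 were called higher and 0 lower, with a median of 2.10. Gzmb and Prf1 are in both lists. Gzmb, granzyme B, the protease that kills target cells after delivery through perforin, was 204 and 379 at day 0 and 113553, 115106 and 117386 at day 6. That is 395-fold between group means, at 8.69 ± 0.32 on the log2 scale (± SE, adjusted p 1.23e-16), and it was the largest rise among the genes named by size. Gzmc, a granzyme of strongly activated killer cells, was 56.3 and 82.0 at day 0 and 2012, 3953 and 3793 at day 6. Gzmk, a granzyme of effector memory cells, was 24.3 and 7.76 at day 0 and 547, 545 and 542 at day 6. No day 6 library came near a day 0 library for any of these granzymes, and their log2 changes were 5.50 ± 0.42 and 5.20 ± 0.37 (adjusted p 6.53e-10 and 1.65e-10). Prf1, perforin, was 162 and 298 at day 0 and 861, 709 and 1645 at day 6, with JL027 the highest library at both times (log2 change 2.18 ± 0.34, adjusted p 3.52e-05). Fasl, a death ligand, rose 4.11-fold (adjusted p 8.43e-05).

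Il10, the suppressive cytokine interleukin 10, was 111 and 669 at day 0 and 1716, 2021 and 1558 at day 6. The day 0 libraries lay far apart, yet all day 6 libraries were above both (log2 change 2.68 ± 0.56, adjusted p 0.00122). The call was lost without the day 0 library JL019 and when only the compared groups were fitted. Lgals1, galectin 1, a secreted lectin that dampens effector T cells, was 5149 and 5119 at day 0 and 33977, 44201 and 42442 at day 6 (log2 change 2.96 ± 0.35, adjusted p 6.75e-07). Havcr2, the receptor Tim-3, rose from 125 and 141 to 5539.7, 5439 and 4877, a 39.7-fold difference (adjusted p 1.63e-10). Tgfb1, the cytokine TGF-beta 1, overlapped between the groups, with 1272 and 2112 at day 0 and 1843, 1564 and 2272 at day 6 (adjusted p 0.835). Lag3, a receptor for class II molecules, was 246 and 322 at day 0 and 379, 477 and 768 at day 6, above the day 0 libraries but not past the test (log2 change 0.88 ± 0.41, adjusted p 0.175).

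Inhibitory receptors moved in both directions. Of 18, 7 were called higher and 3 lower, with a median log2 change of 0.60 (0.22 after quantile normalisation), and 1 lower without either day 0 library. Klrg1, a marker of terminally differentiated effector cells, was 1610.1 and 1555 at day 0 and 19106, 18881 and 12463 at day 6 (10.6-fold, adjusted p 5.52e-06). Pdcd1, the receptor PD-1, was 2935 and 2616 at day 0 and 17310.4, 11742 and 9086 at day 6. Both receptors were lowest in JL027 among the day 6 libraries, without reaching the day 0 values. Tigit, which competes for ligands of co-stimulatory CD226, rose 3.73-fold and Lilrb4a, an inhibitory leukocyte receptor, 18.1-fold (adjusted p 0.000385 and 7.9e-06). Of 16 co-stimulatory receptors, 5 were called higher and 2 lower, with a median of 0.58 (0.27 after quantile normalisation). These became 8 higher when only the Treg groups were fitted, 0 lower without day 0 JL027 and 1 lower without day 6 JL019-2. Icos, a receptor of the CD28 family, rose 3.59-fold (adjusted p 0.00148).

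Some effector cytokines rose in Treg, among them Ifng, Il4 and Csf2. Of 20 cytokine genes, 7 were called higher and 3 lower in Treg, with a median log2 change of 0.40, whereas 16 were called higher in CD4 cells and 15 in CD8 cells, with medians of 4.10 and 2.77. The Treg median rested on single libraries, at 0.17 without day 0 JL019, 0.88 without day 0 JL027, 0.74 without day 6 JL019-1 and 0.65 without day 6 JL027. The share of all genes that passed in either direction was 41.1% for CD4 cells and 38.4% for CD8 cells, each with 4 day 6 libraries. The difference between cell types passed the test for 11 of the 20 against CD4 cells and 8 against CD8 cells, and for 4.71% and 6.03% of all genes. Ifng, the macrophage-activating cytokine interferon gamma, was 141 and 351 at day 0 and 1328, 1438 and 1349 at day 6. The log2 change was 2.62 ± 0.38 in Treg (adjusted p 1.52e-05), 6.33 in CD4 and 6.74 in CD8 cells, and the change in Treg was smaller by 3.71 and 4.12 on the log2 scale (adjusted p 0.000112 and 1.08e-05). Il2, the T-cell growth factor that Treg are known not to make, was 2.97 and 4.65 at day 0 and 2.93, 9.47 and 4.13 at day 6. Il2 stayed at these low values in Treg while CD4 cells went from a mean of 25.1 to 593, and the difference of the changes was -4.08 (adjusted p 0.0101). Il4, a type 2 cytokine, was 27 and 29.6 at day 0 and 465, 764 and 751 at day 6 (adjusted p 1.15e-06). Csf2, the growth factor GM-CSF, was listed at 0 and at 6.53 at day 0 and was 77.0, 129.6 and 240.4 at day 6 (log2 change 5.62 ± 0.68). Lta, lymphotoxin alpha, fell from 1420.4 and 1793 to 210.4, 214 and 187 (log2 change -2.97 ± 0.36, adjusted p 1.02e-06).

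Among 8 chemokine genes, 4 were called higher and 1 lower, with a median log2 change of 1.84. The call of the lower gene, Xcl1, was lost without day 0 JL019 or JL027, without day 6 JL019-2 or JL027, and under 4 other settings. Ccl3 and Ccl4, inflammatory chemokines, were highest in JL027 at day 6, with 1407 and 1734, against 406 and 708 in JL019-1 and 586 and 926 in JL019-2. Their day 0 values lay between 24.6 and 82.1 and between 66.9 and 89.6. Log2 changes were 3.91 ± 0.58 and 3.74 ± 0.41 in Treg and 9.35 and 8.19 in CD4 cells, and both differences passed the test (adjusted p 0.000146 and 2.9e-05). Ccl1, a ligand of Ccr8, rose 33.1-fold. Ccl5, a chemokine of activated T cells, was 618 and 763 at day 0 and 2337, 2261 and 3689.8 at day 6 (adjusted p 0.0252), a call that was lost in 3 of the 5 fits that left out 1 Treg library.

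Several homing receptors for inflamed tissue and gut were higher at day 6. Of 28, 11 were called higher and 3 lower, with a median log2 change of 0.93, and 6 were lower when only the Treg groups were fitted or after quantile normalisation. Ccr9, which draws T cells to the small intestine, was 748 and 662 at day 0 and 14354, 19234 and 19081 at day 6. The 24.9-fold rise (log2 change 4.63 ± 0.40, adjusted p 5.22e-09) stood against a log2 change of 2.55 in CD4 cells and of -3.58 in CD8 cells. Both differences passed the test, at 2.07 (adjusted p 0.0271) and 8.20 (adjusted p 1.79e-10). Cxcr6, linked to residence in liver and gut, rose 7.14-fold and Cxcr3, a receptor of type 1 effector cells, 2.92-fold (adjusted p 1.39e-08 and 7.84e-05). Itgae, the CD103 integrin chain that binds epithelium, was 2327 and 3091 at day 0 and 6949.6, 6189.8 and 5515 at day 6, above the day 0 libraries but not past the test (adjusted p 0.0764). In CD8 cells Itgae fell by 5.48 on the log2 scale, so that the change in Treg was larger by 6.68 (adjusted p 9.97e-08).

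Many genes of naive and lymphoid-resident T cells were lower at day 6. Of 20 genes, 13 were called lower, 1 was called higher and 6 did not pass the test, with a median log2 change of -2.31. Ccr7, which guides cells into lymph nodes, was 12569 and 16001 at day 0 and 1187, 1127 and 259.9 at day 6. JL027 had the lowest Ccr7 of the day 6 libraries. Tcf7, the factor TCF-1 of naive and stem-like T cells, was 8306 and 10618 at day 0 and 311, 261 and 250.1 at day 6, a 34.5-fold fall (adjusted p 4.8e-07). Id3, an inhibitor of E-protein factors, fell 42.2-fold, from 4065 and 3509 to 91.8, 63.7 and 114. Bcl2, a survival factor, was 6230.2 and 5192 at day 0 and 1089, 798 and 834 at day 6 (adjusted p 1.71e-07). Klf2, which drives exit from lymph nodes, was 6031 and 12036 at day 0 and 3375, 2319.8 and 3191 at day 6 (adjusted p 0.00365), and its call was lost without the day 0 library JL027. The 1 member called higher was Il7r, the interleukin 7 receptor, whose values were chosen for naming after they were seen. Il7r was 5266 and 3243 at day 0 and 25490.0, 26048 and 17530.3 at day 6 (adjusted p 0.000442). In CD8 cells Il7r fell by 2.06 on the log2 scale, and the difference passed the test (adjusted p 3.86e-05).

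Many effector Treg genes and several transcription factors of effector cells were higher. Of 20 effector Treg genes, 13 were called higher, 0 lower and 7 did not pass the test, with a median log2 change of 1.69. Id2, an inhibitor of E-protein factors that opposes Id3 in T-cell fate, was 2919.7 and 2899.6 at day 0 and 19843, 21431 and 23048 at day 6 (7.37-fold, adjusted p 6.99e-08). Prdm1, the factor Blimp-1 of effector Treg, was 676 and 797 at day 0 and 3876, 3182 and 2877 at day 6 (4.5-fold, adjusted p 2.37e-05). Tbx21, the type 1 factor T-bet, was 156 and 252 at day 0 and 1493, 1070.4 and 1721 at day 6 (adjusted p 9.47e-05). All 3 factors were higher in every day 6 library than in either day 0 library. Of 30 transcription factors, 10 were called higher and 4 lower, with a median of 0.50, and 2 lower without day 0 JL027. Eomes, a relative of T-bet, was 57.4 and 79.1 at day 0 and 249.7, 166 and 366 at day 6 (adjusted p 0.00011).

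Among 26 cytokine receptors, 8 were called higher and 2 lower, with a median log2 change of 0.42. Without day 0 JL019 5 were higher, 1 was lower without any 1 of the 5 Treg libraries, and 6 were lower when only the Treg groups were fitted. After quantile normalisation the median was 0.09, with 4 lower, and without day 6 JL019-1 it was 0.26. Il12rb2, the signalling chain of the interleukin 12 receptor, was 36.8 and 16.9 at day 0 and 2225, 2410.0 and 2117 at day 6, an 83.8-fold rise (adjusted p 4.71e-08). Ifngr1, the ligand-binding chain of the interferon gamma receptor, rose 4.48-fold and Il1rl1, the receptor for interleukin 33, 7.67-fold (adjusted p 1.34e-07 and 3.34e-05). Il6ra, the interleukin 6 receptor, fell from 2896 and 3533 to 166, 160.3 and 95 (adjusted p 1.04e-07). Of 18 genes of JAK-STAT signalling and its feedback, 3 were called higher and 0 lower, a share near the 13.3% called over all genes, with a median of 0.58 (0.29 after quantile normalisation). The count was 1 without any 1 of the 5 Treg libraries and after quantile normalisation, and 9 when only the Treg groups were fitted (2553 of all genes higher). Socs2, a feedback inhibitor, rose 3.77-fold (adjusted p 3.93e-05), while Jak2, a receptor-bound kinase, was near the threshold, at an adjusted p of 0.0498.

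Most cell cycle genes were higher in day 6 Treg. Of 32, 28 were called higher and 0 lower, with a median log2 change of 2.02, against medians of 3.50 in CD4 and 2.75 in CD8 cells. The change in Treg differed from that in CD4 cells for 17 of the 32 genes (4.71% of all genes) and from that in CD8 cells for 4 (6.03% of all genes). Mki67, a marker of cycling cells, was 902 and 872 at day 0 and 3855, 5162 and 4344 at day 6 (adjusted p 5.52e-06). Ccna2, cyclin A2, was 490.0 and 879.8 at day 0 and 4209.6, 5041 and 4448 at day 6, and its log2 change of 2.79 was smaller than the 4.36 of CD4 cells (adjusted p of the difference 0.0066). Of 7 inhibitors of cyclin-dependent kinases, 4 were called higher and 0 lower, with a median of 1.39. Cdkn1a, the inhibitor p21, rose from 88.1 and 229 to 1774, 1615 and 1365 (adjusted p 0.000279). Of 19 glycolysis genes, 12 were called higher and 0 lower, with a median of 1.23, and 7 higher without day 0 JL019. Ldha, which makes lactate, was 25096 and 26668 at day 0 and 69576, 69214 and 66833 at day 6 (adjusted p 1.45e-05), and Slc16a3, a lactate exporter, rose 9.72-fold. Of 20 respiratory chain genes, 0 were called by limma and 7 had an unadjusted p under 0.05, with a median of 0.53, whereas 18 were called higher in CD4 and 18 in CD8 cells. The count in Treg was 11 higher when only the compared groups were fitted (2553 of all genes higher) and 3 higher after quantile normalisation, where the median was 0.20. The difference between cell types passed the test for 0 of the 20 genes. Of 20 sterol synthesis genes, 1 was called higher and 1 lower, with a median of -0.10 that ran from -0.25 without day 0 JL019 to 0.19 without day 0 JL027, and the higher call was lost without any 1 of 4 Treg libraries (all but day 6 JL027). Of 21 apoptosis genes, 6 were called higher and 2 lower, with a median of 0.74, and 3 higher without day 0 JL019 and 11 when only the Treg groups were fitted. Of 14 early stress genes, 2 were called lower, Jun and Dnajb1, and 0 higher, with a list median of -0.62. Both calls were lost without the day 0 library JL027, and that of Dnajb1 also without any 1 day 6 library. The median was -0.03 without day 0 JL027, -1.13 without day 0 JL019 and -1.003 after quantile normalisation.

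**Figure D2:**
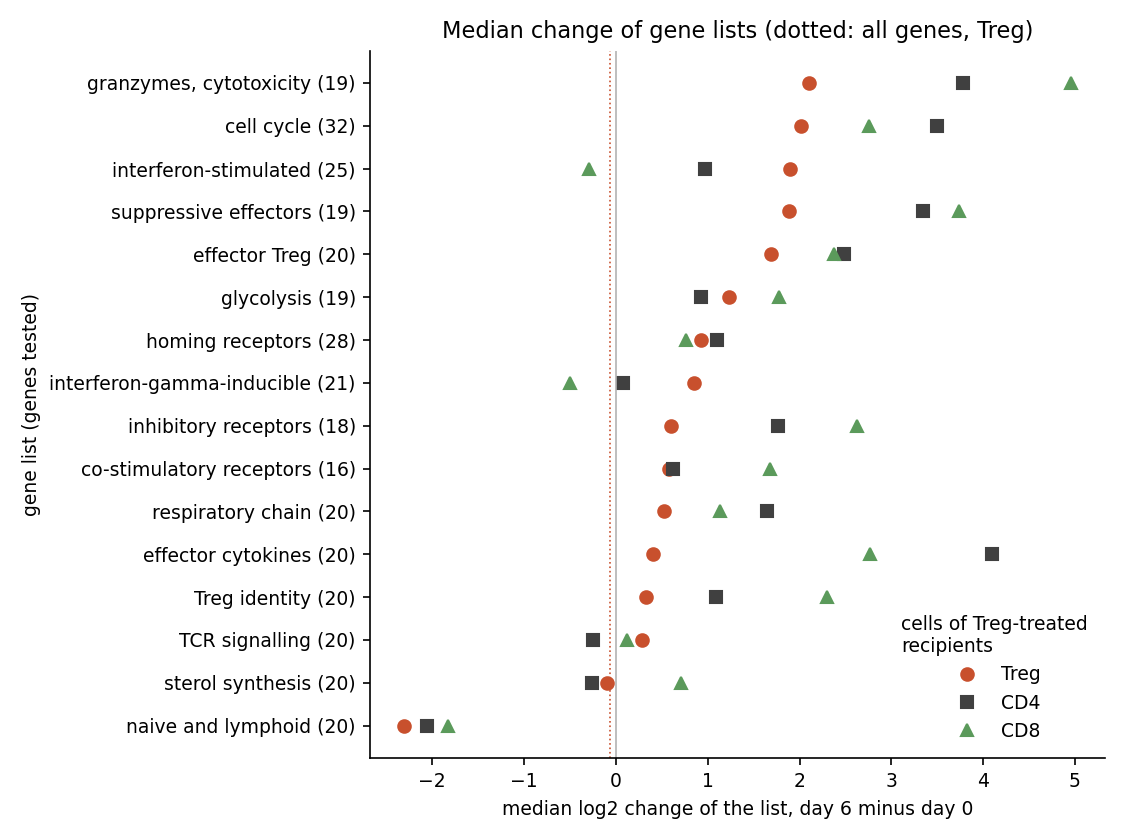
Median log2 change of each gene list, day 6 minus day 0, in Treg (red circles) and in CD4 (squares) and CD8 (triangles) cells of Treg-treated recipients, with the number of genes tested beside each name. The dotted line marks the median over all genes in Treg, -0.07. Interferon-stimulated genes have a median of 1.90 in Treg, 0.97 in CD4 and -0.29 in CD8 cells, while effector cytokines have 0.40 in Treg (0.17 to 0.88 without 1 Treg library) and 4.10 in CD4 cells.

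Interferon-stimulated genes, the antiviral set switched on by type I interferon, mostly rose in Treg. Of 25, 20 were called higher and 0 lower, with a median log2 change of 1.90. In CD4 cells 14 were called higher and 2 lower, and in CD8 cells 7 higher and 8 lower, with medians of 0.97 and -0.29. The change in Treg differed from that in CD4 cells for 4 of the 25 genes (4.71% of all genes) and from that in CD8 cells for 12 (6.03% of all genes). Oas1a, which makes the second messenger of antiviral RNA decay, was 1258 and 932 at day 0 and 7335, 7024 and 4766 at day 6 (5.82-fold, adjusted p 3.43e-06). Ifitm1, a membrane protein that blocks virus entry, was 21.7 and 4.47 at day 0 and 2250.2, 2505 and 1482 at day 6 (159-fold, adjusted p 1.2e-08). Ifitm2, of the same family, was 283 and 265 at day 0 and 5147, 8007 and 7325 at day 6, and Zbp1, a sensor of viral nucleic acid, rose 3.51-fold (adjusted p 6.35e-06 and 3.88e-06). Of 21 interferon gamma-inducible genes, 8 were called higher and 0 lower, with a median of 0.85, against medians of 0.08 in CD4 and -0.50 in CD8 cells. The count in Treg was 5 without either day 0 library and 19 when only the Treg groups were fitted (2553 of all genes higher). Gbp2, a guanylate-binding protein, was 4356 and 3327 at day 0 and 15741, 18423 and 18797 at day 6. Its log2 change of 2.21 in Treg exceeded that in CD8 cells by 2.71 (adjusted p 0.00108), while the difference of 1.18 from CD4 cells did not pass the test (adjusted p 0.152).

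Since this list moved together in Treg, the promoters of its members were searched for a core of the interferon-stimulated response element, the site bound by interferon regulatory factors, written here as GAAANNGAAA and read on both strands (overlapping matches were counted). RefSeq promoters of the GRCm38.p6 build, 250 bases before to 50 bases after the start of a gene, were found for 18 of the 25 genes. The letters occurred in 9 of them, all among the 14 promoters of genes called higher, and in 0 of the 4 of genes not called, against 943 of all 27025 promoters (3.49%). This describes letters in a window and not binding, and no test was made. 4 promoters are printed to show how they differ: Ifitm1 (chr7:140967826-140968125, plus strand), which rose most of the list and holds no match, Oas1a (chr5:120907476-120907775, minus strand) with 2 overlapping matches, Ifitm2 (chr7:140955912-140956211, minus strand) with 1, and Isg15 (chr4:156200769-156201068, minus strand) with 3, chosen after its matches were seen. Each reads 5′ to 3′ on the gene's strand, with capitals marking the matches.
Ifitm1: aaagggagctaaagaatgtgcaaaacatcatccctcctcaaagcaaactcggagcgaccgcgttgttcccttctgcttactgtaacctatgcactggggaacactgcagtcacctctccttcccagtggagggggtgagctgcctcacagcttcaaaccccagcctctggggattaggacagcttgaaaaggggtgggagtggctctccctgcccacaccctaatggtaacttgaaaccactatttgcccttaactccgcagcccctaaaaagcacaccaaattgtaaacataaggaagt
Oas1a: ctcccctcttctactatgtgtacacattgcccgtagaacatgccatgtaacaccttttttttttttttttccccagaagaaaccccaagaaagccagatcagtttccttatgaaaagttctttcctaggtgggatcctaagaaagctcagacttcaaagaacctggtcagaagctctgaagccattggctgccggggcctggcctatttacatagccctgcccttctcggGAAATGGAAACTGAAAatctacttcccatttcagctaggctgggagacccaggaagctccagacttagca
Ifitm2: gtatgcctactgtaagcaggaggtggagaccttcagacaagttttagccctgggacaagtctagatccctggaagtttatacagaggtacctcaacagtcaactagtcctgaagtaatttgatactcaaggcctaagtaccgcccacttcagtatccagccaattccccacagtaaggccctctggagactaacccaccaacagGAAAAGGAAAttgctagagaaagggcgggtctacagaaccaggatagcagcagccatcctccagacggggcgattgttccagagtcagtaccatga
Isg15: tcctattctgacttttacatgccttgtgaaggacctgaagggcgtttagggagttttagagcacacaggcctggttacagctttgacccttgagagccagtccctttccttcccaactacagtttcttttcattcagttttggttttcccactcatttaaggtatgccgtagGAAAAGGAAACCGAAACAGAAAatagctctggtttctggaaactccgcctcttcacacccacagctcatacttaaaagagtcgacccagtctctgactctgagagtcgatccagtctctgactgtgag
Isg15, a ubiquitin-like protein, had 649 and 621 at day 0 and 2712, 3372 and 3041 at day 6 (log2 change 2.25 ± 0.36, adjusted p 5.53e-05). Of the 4, Ifitm1 with no match rose most and Isg15 with 3 matches rose least.

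Among the genes with the largest changes were several outside the lists. Muc20, a membrane mucin, was 8.04 and 3.75 at day 0 and 891, 887 and 758 at day 6. Nmur1, the receptor for neuromedin U, was 20.5 and 12.2 at day 0 and 1349, 1929 and 2304 at day 6. Ffar2, a receptor for short-chain fatty acids, was 1.59 and 4.35 at day 0 and 380.4, 337 and 439.9 at day 6. In each, the lowest day 6 library was far above both day 0 libraries, with limma adjusted p of 8.57e-08, 2.02e-08 and 5.52e-06. Nmur1 and Ffar2 changed more in Treg than in CD8 cells, by 4.42 and 4.79 on the log2 scale (adjusted p 0.00188 and 0.0184), while the differences from CD4 cells did not pass the test (adjusted p 0.415 and 0.26). Ermn, an actin-binding protein, rose 123-fold and Lgals7, galectin 7, 103-fold. Gcg, the glucagon precursor, was listed at 0 in both day 0 libraries and was 68.8, 115 and 436 at day 6. Of the largest falls, Gsta4, a glutathione transferase, was 1104 and 1065 at day 0 and 17.2, 18.4 and 17.6 at day 6, and Capn3, a calpain protease, 1094 and 1338 at day 0 and 23.8, 19 and 23.1 at day 6. Atp1b1, a subunit of the sodium pump, fell 50.8-fold and Apol9a, an apolipoprotein L, 41.0-fold. Exosc6, a subunit of the RNA exosome, was 531 and 600.5 at day 0 and was listed at 0 in all 3 day 6 libraries. Since exosome subunits are used by every cell, the zeros may be failed estimates and no fold is given. Whether other listed zeros, such as those of Gcg and Csf2 at day 0, are of this kind was not tested.

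Markers of other cells were read beside these results, and their part in them was not tested. In sorted bulk samples, fewer cells of a type and less RNA per cell cannot be told apart. Of 10 red cell and platelet genes, 5 were called higher at day 6 and 0 lower, and their summed values were 278 to 739 at day 0 and 2659 to 52013 at day 6, highest in JL027. The count was 1 without day 6 JL027, 1 without day 0 JL027 and 2 without day 0 JL019. Hba-a1, a haemoglobin chain, was 37.1 and 7.41 at day 0 and 777, 346 and 9016 at day 6. Of 14 myeloid genes, 3 were called higher (Elane, Itgam and Mpo) and 1 lower (Csf1r), with sums of 2612 to 3456 at day 0 and 2270 to 7603 at day 6, highest in JL019-1. Without day 0 JL019 or JL027, or day 6 JL019-1, 1 was higher, and the lower call was lost without either day 0 library or day 6 JL027. Of 9 natural killer and gamma delta T cell genes, 1 was called higher (Eomes) and 4 lower (Ncr1, Klra4, Klrk1 and Klra8), and their sums were 976 to 1174 at day 0 and 471 to 806 at day 6. Without day 0 JL027 1 was lower, and 2 without day 6 JL019-1 or JL019-2. Klra4 was listed at 0 in 2 of the 3 day 6 libraries and Klra8 also in 2. Of 12 B and plasma cell genes, 1 was called higher (Xbp1, a secretory stress factor not limited to these cells), a call lost without day 0 JL019 or any 1 day 6 library, with sums of 4916 to 6047 at day 0 and 6216 to 7454 at day 6. Only Xbp1 among the 12 B and plasma cell genes had a positive log2 change, and the median of that list was -0.47. Markers of CD8 cells (2 genes), CD4 lineage (3 genes) and stroma (7 genes) gave 0 calls by limma and 0 genes at an unadjusted p under 0.05. When only the Treg groups were fitted, 1 CD4 lineage gene and 1 stromal gene were called. 4 Y-linked genes also gave 0 calls, but their sums were 8142 and 6302 in the JL027 libraries of day 0 and day 6, against 184 to 607 in the JL019 libraries, so the label prefix went together with Y-linked expression in Treg. Their median log2 change was -1.74 in Treg, 3.07 in CD4 and 2.12 in CD8 cells, with 0 calls in each cell type. Its part in the differences between cell types was not tested.

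The changes in Treg were next set against those in CD4 and CD8 conventional cells, where the difference of the day 6 minus day 0 changes was tested. It passed for 788 genes (4.71%) against CD4 cells, 241 larger and 547 smaller in Treg, and for 1010 genes (6.03%) against CD8 cells, 495 larger and 515 smaller. For 340 genes both differences passed with the same sign. The fit treated all libraries as independent, also those whose labels share a recipient or a prefix. The CD4 count moved most with single libraries. Without the day 6 CD4 library JL027-1 it was 2677, and it was 329 and 333 without the day 0 CD4 library JL019 or JL027, 344 and 465 without the day 0 Treg library JL019 or JL027, and 507 without the day 6 Treg library JL019-1. The CD8 count was 660 without the day 0 CD8 library JL027, and 645 and 589 without the day 0 Treg library JL019 or JL027. With libraries centred on their medians, the CD8 split became 375 larger and 659 smaller, as the median difference over all genes moved from 0.08 to -0.15.

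**Figure D3:**
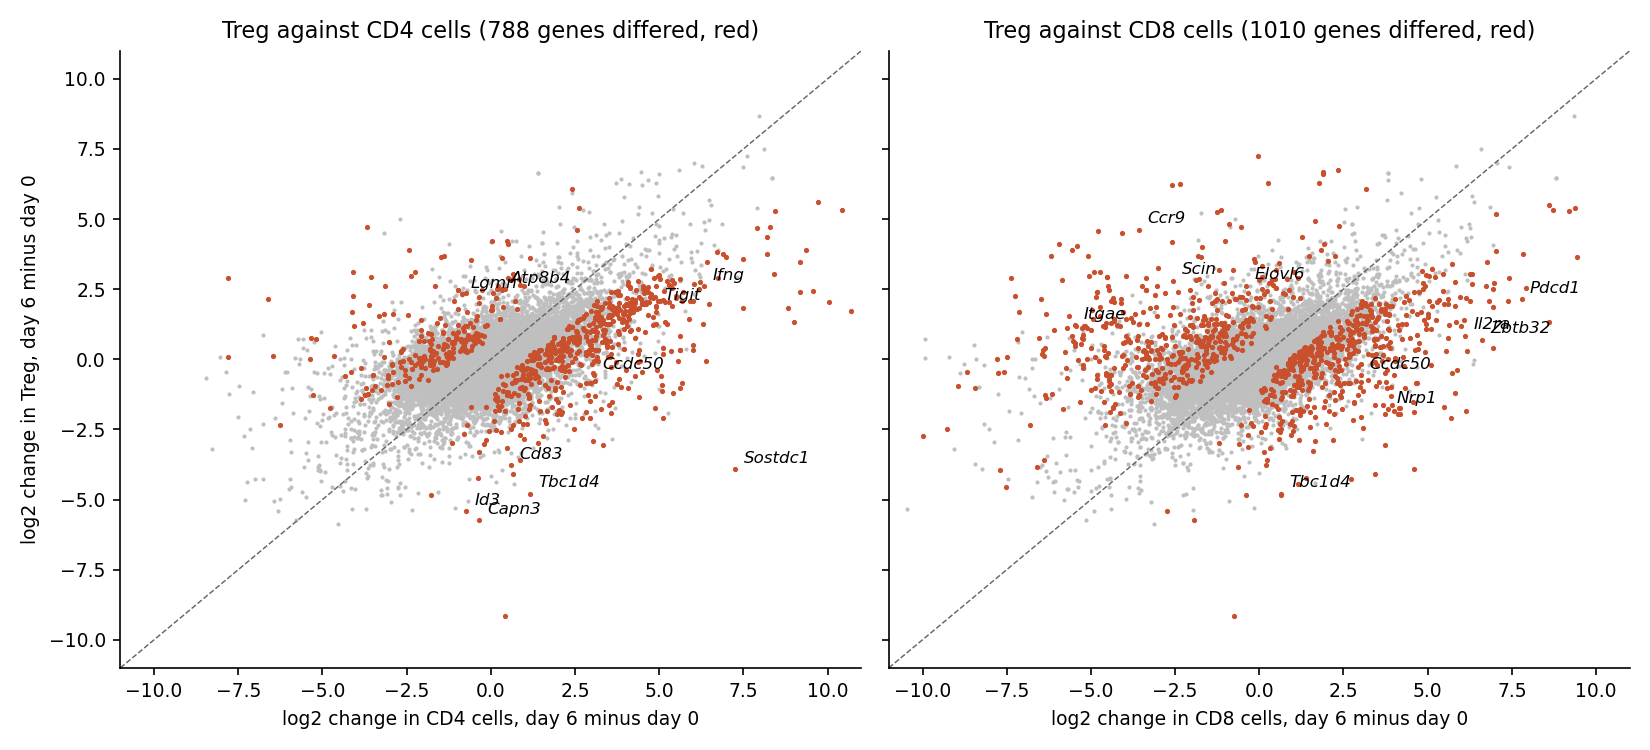
Log2 change of every gene in Treg (y axis) against that in CD4 (left) or CD8 cells (right) of Treg-treated recipients, each day 6 minus day 0, with the diagonal dashed. Red points are the 788 and 1010 genes whose changes differed by limma at an adjusted p under 0.05. Tbc1d4 lies below the diagonal in both panels.

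Tbc1d4, a regulator of glucose transporter traffic, showed opposite changes in Treg and CD4 cells. It was 5526 and 4915 at day 0 and 217, 198 and 154 at day 6 in Treg, a 27.5-fold fall, while the CD4 mean went from 1665 ± 83.0 (SD, n = 2) to 3747 ± 702 (SD, n = 4). The difference of the log2 changes was -5.94 against CD4 cells (adjusted p 2.25e-08) and -5.42 against CD8 cells (adjusted p 5.14e-08). Sostdc1, a secreted antagonist of BMP and Wnt signals, was 113 and 82.6 at day 0 and 2.91, 6.34 and 8.32 at day 6 in Treg, against CD4 means of 12.2 and 2067. Its difference of -11.18 (adjusted p 9.24e-08) was the largest in size among the named genes. Id3 fell in Treg while CD4 cells had means of 3031 ± 362 (SD, n = 2) and 1912 ± 732 (SD, n = 4), a difference of -4.68 (adjusted p 2.46e-06). Nrp1 fell in Treg and rose in CD4 and in CD8 cells, with differences of -2.59 and -5.59 (adjusted p 2.9e-05 and 1.92e-11), so that day 6 means were 2149 in Treg, 2299.9 in CD4 and 1754 in CD8 cells. Tigit rose by 1.88 in Treg, 4.90 in CD4 and 5.82 in CD8 cells, and both differences passed (adjusted p 0.000403 and 7.75e-06). In the other direction, Lgmn, the lysosomal protease legumain, was 382 and 398 at day 0 and 1687, 1975 and 2266 at day 6 in Treg, and its change exceeded that in CD4 cells by 3.17 (adjusted p 0.000152). Prf1 rose by 2.18 in Treg and by 0.15 in CD4 cells, a difference of 2.03 (adjusted p 0.00982), while the rise of Gzmb differed from that in neither CD4 nor CD8 cells past the test (adjusted p 0.302 and 0.437). Elovl6, which lengthens fatty acids, and Scin, an actin-severing protein, exceeded their changes in CD8 cells by 3.03 and 5.36 (adjusted p 7.55e-07 and 1.75e-06).

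The TCR repertoire of Treg was narrower at day 6. A clonotype is a combination of V segment, J segment and CDR3, the hypervariable loop that contacts antigen. Beta chain (TRB) reads numbered 12081 and 13059 at day 0 and 16199, 8194 and 9346 at day 6, and were drawn to 8194 a library. Clonotypes then numbered 6120.25 and 6437 at day 0 and 2328, 2247 and 2004 at day 6. The number that holds 50% of reads was 2023 and 2340.05 at day 0 and 121.8, 120 and 98 at day 6. Clonality, which runs from 0 for equal clonotypes to 1 for a single clone, was 0.0156 and 0.0126 at day 0 and 0.147, 0.141 and 0.165 at day 6. The day 6 mean was 0.151 ± 0.0122 (SD, n = 3) and the day 0 mean 0.0141 ± 0.0021 (SD, n = 2), and the two-sided exact permutation test gave p = 0.2, which 3 libraries against 2 cannot go below. The groups did not overlap in any of these measures. CD4 and CD8 cells of Treg-treated recipients reached 0.164 ± 0.0102 and 0.192 ± 0.0318 (SD, n = 4) from 0.00763 and 0.00793 at day 0, and the change was not tested between cell types. Reads are not molecules, since no molecular identifiers were given.

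**Figure D4:**
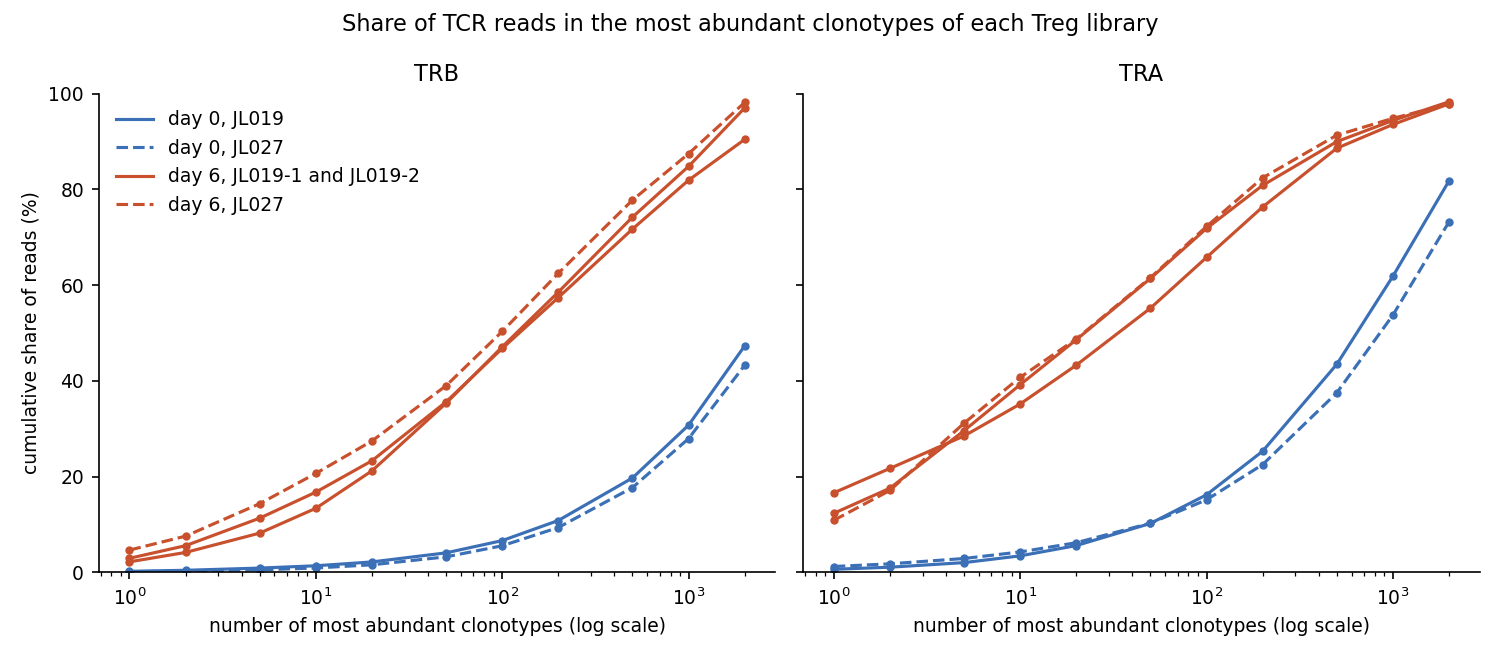
Cumulative share of reads (percent) against clonotype rank on a log axis, for alpha (TRA) and beta (TRB) chains, one line per Treg library (blue, day 0; red, day 6; dashed, prefix JL027). The 100 most abundant TRB clonotypes hold 5.57% and 6.65% of reads at day 0 and 46.8% to 50.3% at day 6.

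The 10 most abundant TRB clonotypes held 1.39% and 0.927% of reads at day 0 and 16.8%, 13.4% and 20.7% at day 6. In JL027 the largest combined TRBV16 with TRBJ2-5 and a CDR3 of 13 residues and held 436 of 9346 reads (4.67%, 95% Wilson interval 4.26 to 5.11). In JL019-1 it combined TRBV16 with TRBJ2-4 (478 of 16199 reads, 2.95%, 2.70 to 3.22), and in JL019-2 TRBV31 with TRBJ2-5 (181 of 8194 reads, 2.21%, 1.91 to 2.55). Both TRBV16 clonotypes had 0 reads in day 0 Treg, which allows a share of up to 0.0248% in JL019 and 0.023% in JL027, and the TRBV31 clonotype with 1 read in day 0 JL027. Each day 6 library had its own largest clonotype. Of the 100 most abundant TRB clonotypes, 17 in JL027, 10 in JL019-1 and 17 in JL019-2 occurred in either day 0 Treg library, and 5, 8 and 6 in another day 6 Treg library. As many or more, 20, 10 and 18, occurred in either day 0 CD4 library, and 14, 12 and 14 in day 6 CD4 cells of Treg-treated recipients, so the counts do not single out day 0 Treg. Day 6 Treg libraries shared 0.774% to 5.67% of their TRB reads with each other by clonotype, and JL019-1 and JL019-2 shared most, 4.82% of the reads of the first and 5.67% of the second. The day 0 libraries shared 11.4% of reads of JL019 and 8.96% of JL027.

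Alpha chains (TRA) were narrower at day 6 as well. After drawing to 6870 reads, clonality was 0.0437 and 0.0410 at day 0 and 0.249, 0.264 and 0.264 at day 6, with no overlap (exact permutation p 0.2, the smallest possible). The 10 most abundant TRA clonotypes held 3.46% and 4.28% of reads at day 0 and 35.2%, 39.2% and 40.7% at day 6. The largest were TRAV7-1 with TRAJ21 in JL019-1 (16.6% of reads), TRAV19 with TRAJ31 in JL019-2 (12.3%) and TRAV8D-2 with TRAJ6 in JL027 (10.9%). The TRAV7-1 clonotype also had 10 reads in day 6 JL019-2. At the same drawn depth, JL019-1 shared 20.1% of its TRA reads with JL019-2, and JL019-2 shared 4.28% with JL019-1. The other pairs of day 6 Treg libraries shared 0.755% to 2.81%. CD4 cells of Treg-treated recipients had a TRA clonality of 0.163 ± 0.0323 and CD8 cells of 0.277 ± 0.0727 (SD, n = 4). The mean TRB CDR3 length weighted by reads was 13.7 residues at both times (13.71 at day 0, 13.67 at day 6, exact permutation p 0.6).

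V segment use of beta chains moved as well. Of 20 TRBV segments at 1% or more of reads, 15 did not overlap between day 0 and day 6, 5 higher and 10 lower, against 1 of 13 TRAV segments (TRAV9D-3, lower). TRBV26 held 1.46% and 1.37% of reads at day 0 and 12.3%, 15.7% and 13.5% at day 6. The largest TRBV26 clonotype held no more than 1.46% of a library's reads, and the segment's share of clonotypes went from a mean of 1.94% to 19.9%, so the gain was spread over many clonotypes. CD4 cells went from 1.07% of reads to 3.35% ± 0.397 (SD, n = 4) in Treg-treated recipients, 6.33% ± 0.851 (SD, n = 4) in allogeneic recipients without Treg and 1.45% ± 0.355 (SD, n = 3) in syngeneic recipients, and CD8 cells from 0.528% to 0.647% ± 0.151 (SD, n = 4) in Treg-treated recipients. TRBV3 held 4.78% and 5.21% of Treg reads at day 0 and 7.62%, 11.3% and 12.7% at day 6. TRBV23 went from a mean of 0.384% to 4.35% ± 0.854 (SD, n = 3). TRBV12-2 held 0.381% and 0.597% at day 0 and 3.56%, 3.25% and 3.81% at day 6, whereas CD4 cells stayed at 0.24% and 0.221%. TRBV31 held 15.9% and 14.1% at day 0 and 5.10%, 6.94% and 5.97% at day 6, and TRBV4 went from a mean of 8.84% to 3.63% ± 1.24 (SD, n = 3). CD4 cells also had less TRBV31 at day 6, 8.46% against 16.9%, while in syngeneic recipients they had 19.7%. TRBV16, the most used segment, held 42.1% of reads at day 0 and 40.5% ± 5.61 at day 6 (SD, n = 3) with overlapping libraries, and its share of clonotypes was 31.4% and 22.5%. No test was made of segments or of differences between cell types. As background, mouse strains differ in endogenous retroviral superantigens, which bind receptors by their V beta segment; none were measured here.

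**Figure D5:**
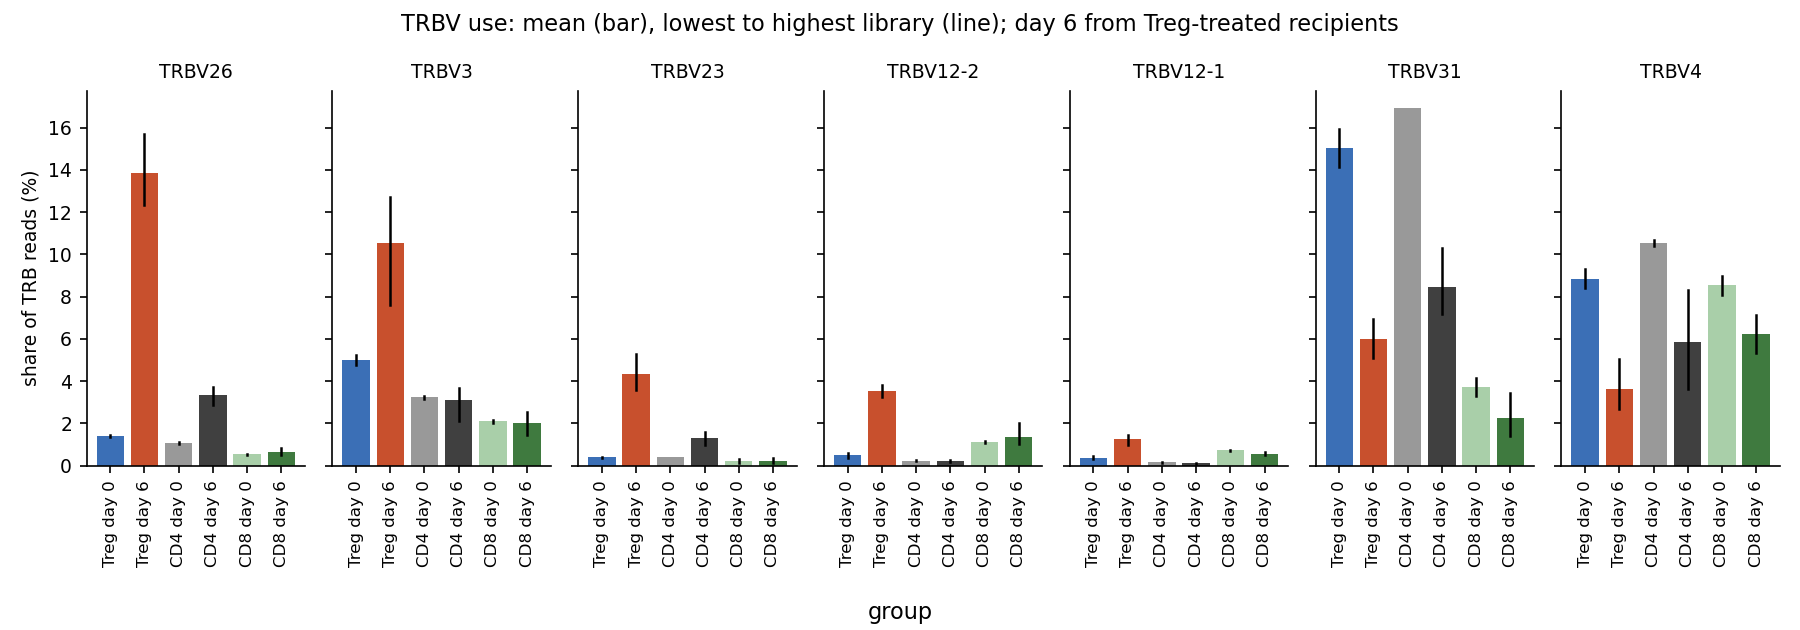
Share of TRB reads (percent) for 7 V segments in Treg, CD4 and CD8 cells at day 0 and at day 6 in Treg-treated recipients. Bars are means and lines run from the lowest to the highest library. TRBV26 spans 12.3% to 15.7% in day 6 Treg and 2.85% to 3.74% in day 6 CD4 cells.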

How the data were processed

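Donor T cells were sorted, RNA was extracted, and full-length cDNA was made with SMARTer v4 chemistry for Nextera XT libraries and nested TCR amplification, per the labels' protocols. The deposited RNA table gives each gene a signal, namely counts that the authors normalised across libraries, as its name says, with DESeq2. FastQC 0.11.7, kallisto, DESeq2 and the builds GRCm38 and mm10 are named without roles, per the submitters' processing notes. Values were not whole (0.221% of nonzero values lay within 0.001 of a whole number), so reads were not recovered and the depth is unknown. TCR tables hold read counts per clonotype, deposited by the authors, with 8194 to 16199 TRB reads a Treg library.

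Limma 3.58.1 (R 4.3.3) was fitted to log2(value + 1) of 16741 genes as group means over all 31 libraries in 10 groups, with trended and robust variances, so groups share 1 spread estimate. P-values were adjusted by Benjamini-Hochberg over all genes, at 0.05. Changes on this scale understate those of low genes. A mean of at least 1 was required, which removed 0 genes. TCR libraries were drawn 20 times to 1 depth with Python 3.11.15, and groups were compared with exact permutation tests. Intervals cover counting error only, as do limits from 3 reads for a count of 0. The fit and the TCR measures were checked on simulated data.

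Members and gene lists were chosen with earlier results of these data known, so list counts are descriptions beside the values over all genes, with no set test. Genes were named by rule: key genes, the 4 members with the lowest p among those called in each list, the 8 largest called rises and 8 falls with a mean of at least 200 and no overlap, and the 5 genes with the lowest p in each direction of each cell type difference. Predicted genes, receptor segments, and mitochondrial and ribosomal genes were passed over in the last 2 steps. Alternatives were other filters, pseudocounts, scalings, fits, a prefix block, a length correction and leaving out each library. Other groups and the sample labelled only as TCR sequencing were left out of the Treg comparison. Some genes that the rule names are not reported here.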

Additional observations from a re-analysis of the deposited data

Results flagged for a closer look

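For 20 values, the day 6 against day 0 change in Treg differed from that in conventional T cells of Treg-treated recipients by a limma test of the difference itself. They are given as the log2 change in Treg minus that in the other cells, were selected as the genes with the lowest p in each direction, and were chosen from the data that they describe. Tbc1d4 and Ccdc50, a ubiquitin-binding adaptor, changed less or in the opposite direction in Treg against both cell types, at -5.94 and -3.63 against CD4 cells and -5.42 and -3.58 against CD8 cells.

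Against CD4 cells, the secreted antagonist Sostdc1 (-11.18), Id3 (-4.68) and the endosome tether Eea1 (-3.07) had lower changes in Treg. Higher changes were found for Ppp1r3b, a glycogen-targeting phosphatase subunit (4.04), the protease Lgmn (3.17), the flippase Atp8b4 (2.14), the lipid-presenting molecule Cd1d1 (1.94) and the kinase Tec (1.72).

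Against CD8 cells, the transcriptional repressor Zbtb32 (-5.91), Pdcd1 (-5.64) and Nrp1 (-5.59) had lower changes in Treg. Higher changes were found for the gut-homing receptor Ccr9 (8.20), the integrin chain Itgae (6.68), the actin-severing protein Scin (5.36), Wls, which carries Wnt proteins for secretion (3.80), and the fatty acid elongase Elovl6 (3.03). Itgae, Ccdc50, Cd1d1, Eea1, Tec and Zbtb32 did not pass the test within Treg alone. The causes of these differences were not tested.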

How the results depend on the processing

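No called change of a named gene reversed in Treg under the alternatives run: of 1792 values for 128 genes, 1707 stayed on the same side of the threshold, 80 (20 genes) lost the call and 5 (4 genes) gained it. These values cover the change in Treg alone. Differences between cell types were not followed gene by gene under the alternatives. The count of 2231 genes was 3994 when only the Treg groups were fitted, and 1088 to 1704 without 1 library. Other settings gave 1799 (also a log2 change of at least 1) to 2640, and quantile normalisation split its 2640 into 1456 higher and 1184 lower. The count against CD4 cells (788) was 2061 (911 larger, 1150 smaller) when only the compared groups were fitted, 1285 after quantile normalisation, and 329 to 2677 without 1 library. Without the day 6 CD4 library JL027-1 (2677) the split was 1233 larger and 1444 smaller. The count against CD8 cells (1010) was 589 to 1075 without 1 library. Centring moved the median difference over all genes from -0.06 to -0.21 against CD4 cells and from 0.08 to -0.15 against CD8 cells, and the CD8 split to 375 larger and 659 smaller. Fits without a day 0 library assume that the lone one left varies like the other groups. The causes of these shifts were not tested.

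The label prefix is shared across groups, but no label says that it marks a common source. With it as a replicate block the counts were 2297, 814 and 1039. Prefix differences at day 0 and day 6 had Pearson's r of -0.089 across genes. Since it rests on so few libraries, this value cannot tell whether a prefix marks a common source. Y-linked expression in Treg went with the prefix at both days. The main fit did not take the prefixes as pairs. Among the named calls lost with the block was that of Wls. TCR narrowing kept its direction under the settings run: the TRB clonality difference was 0.107 to 0.143, and 0.130 to 0.142 without 1 library, and the TRA difference was 0.216. The unknown read depth of the RNA table limits statements on low genes.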
